A study of Vitis vinifera with 54 samples.

Results

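Mature flesh of Chardonnay berries from the zone CC was compared with mature flesh from the 5 other ecological zones of the series. The members are the 18 maturity libraries of the 54 libraries, 3 of them from CC (M-CC) and 15 from HJZ, ZHYS, XG, XLS and HSB, and 22233 of the 25133 genes in the deposited values were tested. All groups are the same Vitis vinifera cultivar at 120 days (DAP), taken as flesh with skin and seeds cut away, and each zone gave 3 biological replicates of 15 berries. The same zone was also sampled at the enlargement period (E-CC, 40 DAP) and the color transition period (V-CC, 80 DAP), and those libraries are used to follow the genes back in time. No treatment was given: the groups differ in where the vines grew, so soil, weather and vineyard practice cannot be told apart here. The replicates describe berries within a zone, and nothing in them samples other vineyards or years.

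Grape berries ripen without a sharp ethylene burst. From the color transition on, flesh cells import sucrose, which cell wall invertase can split outside the cell, and store hexoses in the vacuole while malate is lost. Ripe flesh also fills with thaumatin-like proteins and chitinases, and stilbenes such as resveratrol are made by stilbene synthase from the product of phenylalanine ammonia-lyase (PAL). In colored grapes the MybA regulators switch on UFGT, GST4 and the anthocyanin methyltransferase, mainly in the skin. White grapes such as Chardonnay carry impaired MybA genes and make almost no anthocyanin.

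The libraries fell cleanly by zone. Every one of the 18 libraries was closest to a library of its own group, replicates had a Pearson correlation of at least 0.994 on the log2 scale, no pair was identical, and libraries of different groups reached 0.993 at most. The deposited values are TPM (transcript abundance scaled to the same total in each library), which keep no sequencing depth, so the error of a value is known only from its replicates. Libraries were rescaled by median-of-ratios factors, which were 0.84 to 0.902 in M-CC and 0.853 to 1.14 elsewhere. Levels below are TPM rescaled over the 18 mature libraries. Sums over neighbouring genes and levels compared between stages were rescaled over all 54 libraries, so they differ slightly. A log2 difference is M-CC minus the mean of the 5 other group means on the log2(TPM + 1) scale, which understates differences of genes with low TPM.

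M-CC differed from the mean of the other zones in genes of both directions. A total of 213 genes (0.958% of those tested) were called higher in M-CC and 160 (0.72%) lower by limma, with a Benjamini-Hochberg adjusted p below 0.05 and a log2 difference beyond 1 in either direction. The median difference was 1.2 among the genes called higher and -1.26 among those called lower. With TPM as deposited the split turned to 94 higher and 283 lower, and there the median of all tested genes stood at -0.12, against -0.01 after rescaling. A pseudocount of 0.1 in place of 1 gave 448 higher and 553 lower, so the counts and their balance depend on both choices. In bulk flesh a smaller share of cells of one type and less RNA per cell cannot be told apart.

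These calls measure M-CC against the spread between replicates, not against the spread between zones. When the 6 zone means were the units (4 residual degrees of freedom), limma called 1 gene higher and 0 lower. At an unadjusted p below 0.05 that fit held 96 genes higher and 33 lower by more than 1. The gene that was still called was ID_104881289, which has no symbol in the RefSeq table. It had 0.965, 1.58 and 0.833 TPM in M-CC and was listed at 0 in all 15 other libraries. It passed the filter of at least 3 libraries above 0 TPM only through M-CC. The means of the 5 other zones were all 0, with no spread, so its call carries no weight. The differences below therefore describe how these CC berries stood beside 5 other places, each of which also differed from the rest.

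In 115 of the 213 genes called higher (54%) all 3 M-CC values lay above all 15 others, and in 59 of the 160 called lower (36.9%) all 3 lay below them. Over all tested genes these shares were 6.43% and 4.97%. The second count is sensitive to 1 library, as it was 95 without M-CC replicate 3. Among the genes called higher, the lowest mean of the 5 other zones was that of XG for 110 and XLS for 59. The highest was that of ZHYS for 91 and HSB for 78. Among those called lower the picture was different, since HSB had the highest mean for 104 of 160 and XG for 34, while HJZ had the lowest of the 5 for 75. M-CC was not itself the extreme zone for 34 of the genes called higher and 19 of those called lower. Many of the lower calls thus contrast M-CC with high values in HSB and XG.

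Set against single zones, M-CC stood closest to M-HJZ and farthest from M-XG. The limma contrasts called 356 genes (1.6%) between M-CC and M-HJZ and 1314 (5.91%) between M-CC and M-XG, with 508 (2.28%) for M-ZHYS, 785 (3.53%) for M-XLS and 1103 (4.96%) for M-HSB. These 5 comparisons share the M-CC libraries. CC was not the most distinct of the mature zones, for M-HSB differed from its 5 others in 894 genes (4.02%) and M-HJZ in 156 (0.702%), with 365 (1.64%) in M-ZHYS, 546 (2.46%) in M-XG and 436 (1.96%) in M-XLS, against 373 (1.68%) in M-CC.

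The anthocyanin regulator mybA was the clearest annotated difference. Its record is LOC100853472, with the synonyms MybA1 and MybA3. It had 689, 721 and 622 TPM in M-CC, and 112 to 383 with a median of 287 in the 15 other libraries. The lowest M-CC library was thus well above the highest library of any other zone. By limma mybA was higher in M-CC by 1.49 on the log2 scale (SE 0.06, adjusted p = 1.78e-10), and the linear ratio of the means was 2.63. The nearest zone was HSB with 359, 383 and 335 TPM and the lowest was XLS with 112, 120 and 115. LOC100232838, which lies a few genes from mybA in the RefSeq order and was named here after its values had been seen, had 402, 458 and 414 TPM in M-CC against 87.2 to 252 elsewhere (1.5, SE 0.06, adjusted p = 3.23e-10 by limma). The zones stood in nearly the same order for both genes, with XLS lowest. How reads shared between similar gene copies were counted is not given in the sources used here, so the level of each copy alone is uncertain.

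The anthocyanin genes GST4, UFGT and FAOMT were called higher, but at very low levels and not in every M-CC library. M-CC replicate 2, where they were lowest of the M-CC libraries, had the highest mybA (721 TPM). A link between mybA and these genes was not tested. GST4, a glutathione transferase that carries anthocyanins toward the vacuole, had 11.5, 1.83 and 12.2 TPM in M-CC and 0 to 7.79 elsewhere, the 7.79 being replicate 1 of M-XG. UFGT, the glucosyltransferase that makes the first stable anthocyanin, had 3.33, 0.822 and 3 TPM in M-CC and 0.0916 to 1.57 elsewhere. FAOMT, an anthocyanin methyltransferase, had 3.64, 0.429 and 3.03 TPM in M-CC and 0 to 0.926 elsewhere. In all of them replicates 1 and 3 of M-CC were high, replicate 2 fell inside the range of the other zones, and the highest other library was M-XG replicate 1 for GST4 and UFGT and M-HSB replicate 3 for FAOMT. The limma differences were 2.36 for GST4 (SE 0.44, adjusted p = 4.07e-04), 1.08 for UFGT (SE 0.20, adjusted p = 3.01e-04) and 1.39 for FAOMT (SE 0.26, adjusted p = 3.86e-04). UFGT was 0.86 without M-CC replicate 1 and 0.91 without replicate 3, below the limit of 1, and 0.95 with TPM as deposited.

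**Figure D1:**
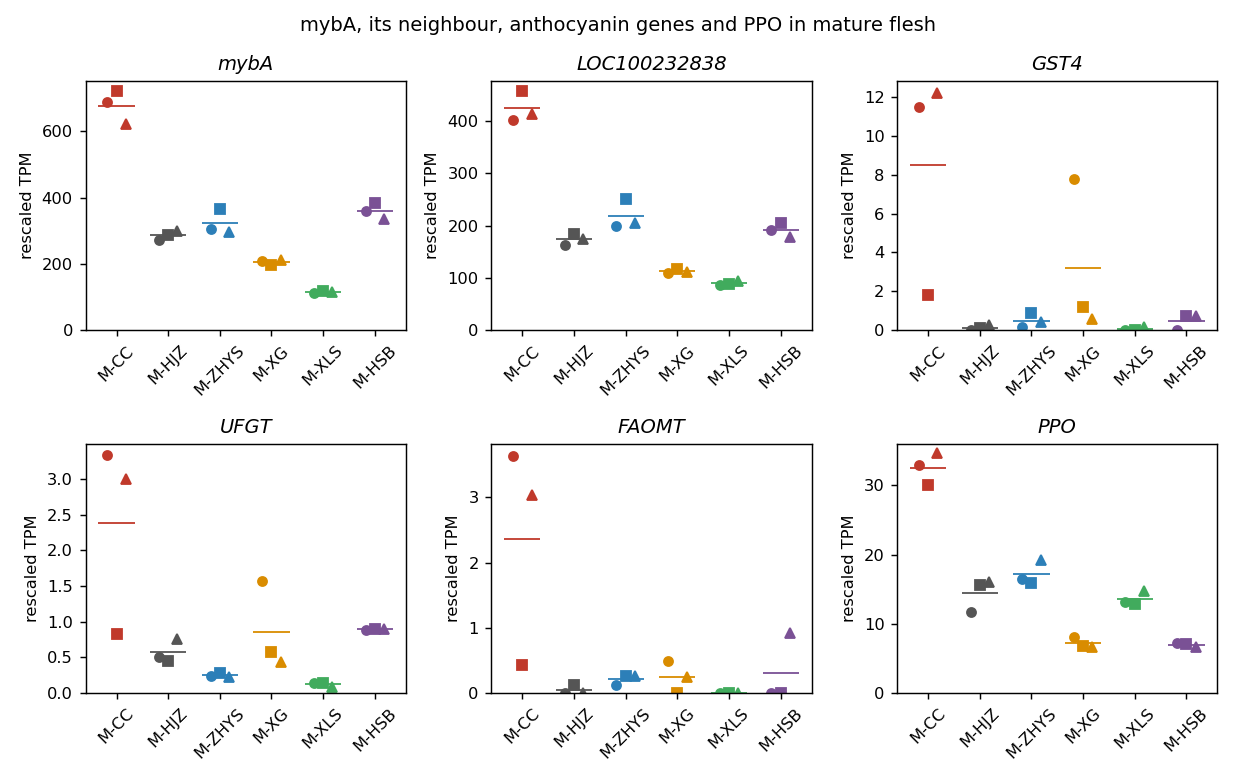
Rescaled TPM of mybA, nearby LOC100232838, GST4, UFGT, FAOMT and PPO in the 18 mature libraries; each point is 1 library (circle, square and triangle for replicates 1, 2 and 3) and each line is the mean of 3. All 3 M-CC points of mybA, 622 to 721, lie above the other zones, while M-CC replicate 2 of GST4 (1.83) lies far below replicates 1 and 3.

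The skin marker list holds only these genes (mybA, GST4, UFGT and FAOMT), so its 4 of 4 calls higher in M-CC repeat the results above. It has no gene of wax or cutin. Their summed level was 640 to 724 TPM in M-CC, and 271 to 301 in M-HJZ, 298 to 368 in M-ZHYS, 200 to 219 in M-XG, 112 to 120 in M-XLS and 338 to 384 in M-HSB. Without mybA the sum was 3.08 to 18.4 TPM in M-CC and 0.136 to 9.84 in the other zones, and none of the 4 was at 0 in all libraries. The part of skin in these differences was not tested. Of the 26 tested members of the flavonoid list these 4 were called higher, against 0.958% of all genes, and 0 lower, against 0.72%, with a list median of 0.15 against -0.01 over all tested genes. With TPM as deposited 3 were called higher and 1 lower. LDOX, which oxidizes leucoanthocyanidin, had a mean of 140 TPM in M-CC against 78.7 (0.84), with all 3 M-CC values above the other 15. The difference was 0.99 for chalcone synthase CHS2, 0.63 for the flavanone hydroxylase F3H, 0.16 for DFR and -0.25 for chalcone isomerase (CHI), none of them called. DFR was -0.09 with TPM as deposited, so its direction depends on the scaling.

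Among phenylpropanoid genes that carry a name, 1 PAL gene and 1 stilbene synthase were called lower in M-CC. The list was matched by name and holds no other gene of either family, so it does not count how many members were low. PAL15 (LOC100245997) encodes a phenylalanine ammonia-lyase, the entry enzyme of the pathway. It had 19.3, 21.7 and 30.8 TPM in M-CC and 28.5 to 210 with a median of 49.1 elsewhere. M-CC replicate 3 overlapped only M-HJZ (29.1, 31.1 and 28.5), while M-XG had at most 134 and M-HSB 181 to 210. Its limma difference was -1.53 (SE 0.10, adjusted p = 2.04e-08), made up of -0.32 against HJZ, -1.05 against ZHYS, -2.40 against XG, -0.89 against XLS and -3 against HSB. VINST1, a stilbene synthase, had 16.4, 18.3 and 34.7 TPM in M-CC and 20.1 to 196 elsewhere, and was called lower at -1.13 on the log2 scale (limma, SE 0.16, adjusted p = 4.06e-05). The M-CC values of VINST1 overlapped those of HJZ and XLS, and the difference was -0.71 without HSB, -0.93 without M-CC replicate 1 and had an adjusted p of 0.123 with all 54 libraries in the fit. Of the 5 members of the phenylpropanoid and stilbene list these 2 were called lower, against 0.72% of all tested genes, with a list median of -0.54. MYB14, a regulator of stilbene synthases, did not follow them: its mean was 180 TPM in M-CC and 142 in the other zones (0.66, not called).

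Both genes lie in stretches of neighbouring genes that were low in M-CC together. A stretch was defined, after the values had been seen, as at least 4 genes called in the same direction with no more than 10 steps between calls in the order of tested genes on the RefSeq assembly. Of the 153 genes called lower with a place in that order, 43 (28.1%) lay in such stretches, against 18 of 204 called higher (8.82%). Around PAL15, 8 of 9 tested genes were called lower, at -2.01 to -1.51, and the 9th, LOC104881974, was near 0 TPM in all zones (-0.04). Around VINST1, 18 of 32 tested genes were called lower, at -1.98 to -1.03, and all 32 had a difference below 0. The 30 genes flanking each stretch had medians of 0.01 and 0.07, with 1 and 0 of them called.  Only PAL15 and VINST1 carry a name in the RefSeq table, and because neighbours in such stretches can be near-identical copies, reads may be shared among them and single-gene values are uncertain.

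**Figure D2:**
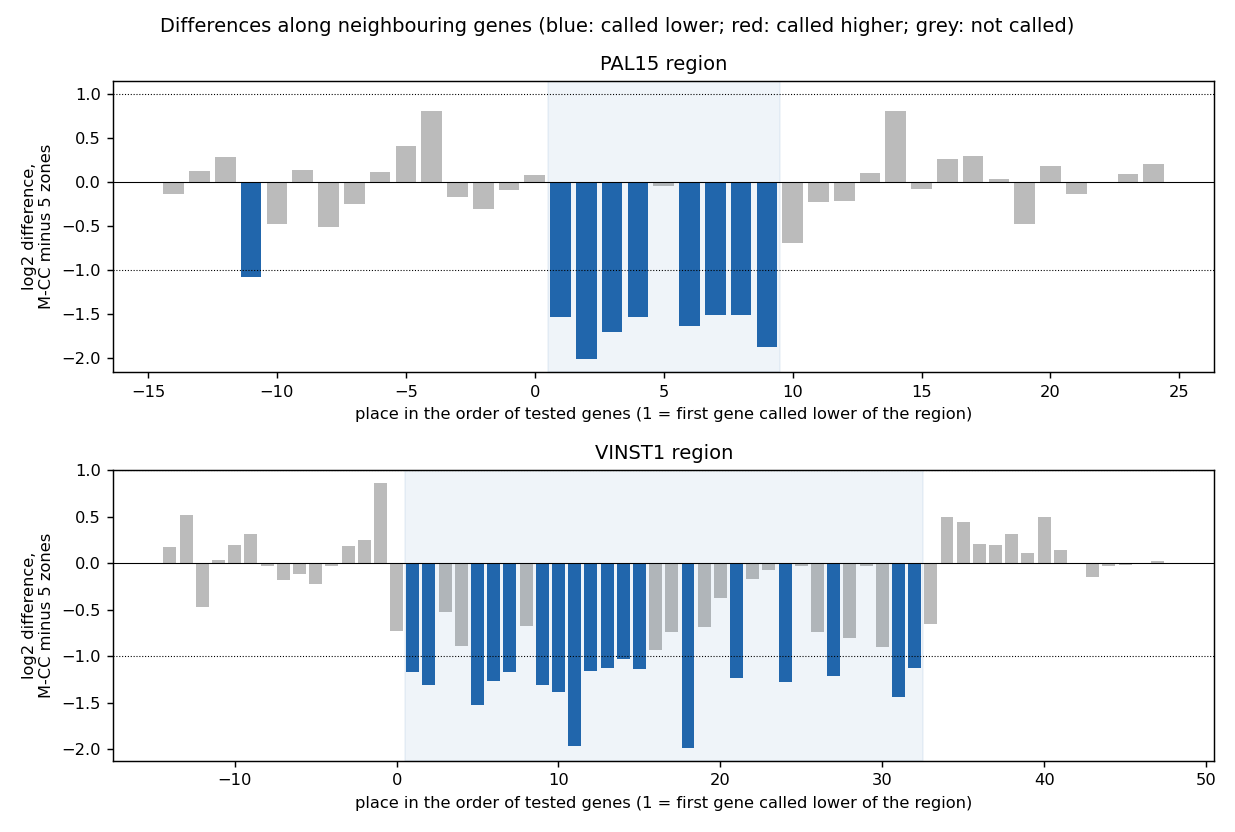
Log2 difference of M-CC minus the mean of the 5 other zones for the tested genes in and around the PAL15 stretch (top) and the VINST1 stretch (bottom), in their order on the RefSeq assembly; blue bars were called lower, grey bars were not called, the shaded part is the stretch and dotted lines mark the limits of 1 and -1. Low genes fill the shaded part, 8 of 9 and 18 of 32, and the flanking genes scatter around 0.

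Sums over the called genes of a stretch depend less on how reads were split among them. The 8 genes around PAL15 summed to 96.7, 111 and 143 TPM in M-CC, and to 155 to 1080 with a median of 237 in the other mature libraries. The 18 genes around VINST1 summed to 583, 751 and 945 TPM in M-CC and to 965 to 5480 with a median of 1370 elsewhere. All 3 M-CC sums lay below all others in both stretches, as the choice of the genes favors. The zones were graded, however, since the VINST1 sum averaged 760 TPM in CC, 969 in HJZ, 1070 in XLS, 1340 in ZHYS, 3250 in XG and 4670 in HSB. M-CC was thus close to HJZ and XLS, and XG and HSB stood far above the rest. Without HSB 9 of the 18 genes around VINST1 were still called lower, while all 8 around PAL15 were.

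In the earlier libraries of the same zone, the sums were among the lowest at E and inside the range of other zones at V. Of these genes, 4 of 8 around PAL15 and 5 of 18 around VINST1 were called higher in V-CC, and 0 lower. At E the VINST1 sum was 7.27, 3.40 and 3.30 TPM in E-CC and 6.11 to 200 in the other zones. Replicates within a zone were unlike there, with 14.1, 200 and 39.2 in E-XLS and 31.5, 133 and 39.4 in E-HJZ. At V it was 610, 507 and 302 TPM in V-CC and 46.0 to 1500 elsewhere, with 2 libraries of V-XLS, and no other, above all of V-CC. By M the mean sum had risen in every zone, from 473 to 760 TPM in CC, from 867 to 1070 in XLS and from 302 to 4670 in HSB. The PAL15 sum had a like course, with 2.69, 2.39 and 1.96 TPM in E-CC (others 3.98 to 91.4) and 96.0, 108 and 84.4 in V-CC (others 12.7 to 249). The 91.4 was E-XLS replicate 2, beside 5.42 and 9.61 in replicates 1 and 3. For PAL15 itself the CC difference was -1.64 at E, 1.46 at V and -1.53 at M, and the change from V to M was -2.61 (adjusted p = 0.00139 by limma over the 54 libraries). For VINST1 the differences were -1.75, 1.32 and -1.13. The 1.32 at V was not called (adjusted p = 0.074 by limma), nor was the change from V to M (adjusted p = 0.0652). Differences at E and M are against all 5 other zones, but those at V and the change are against HJZ, ZHYS, XG and XLS. The change is therefore not the M value minus the V value. The V-XLS libraries were not alike. Replicates 1 and 3 had VINST1 sums of 1040 and 1500 TPM, near the M-XLS mean of 1070, and replicate 2 had 60.6. Over all genes replicates 1 and 3 correlated better with the other zones at M (0.991 and 0.989) than at V (0.98 and 0.971), while replicate 2 had 0.958 at M and 0.986 at V. All 3 are in the reference at V. Without V-XLS, an alternative added after seeing the data, the difference at V was 1.89 for PAL15 and 1.56 for VINST1, and the change from V to M was then called for VINST1 too (-2.47, adjusted p = 0.0248 by limma).

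**Figure D3:**
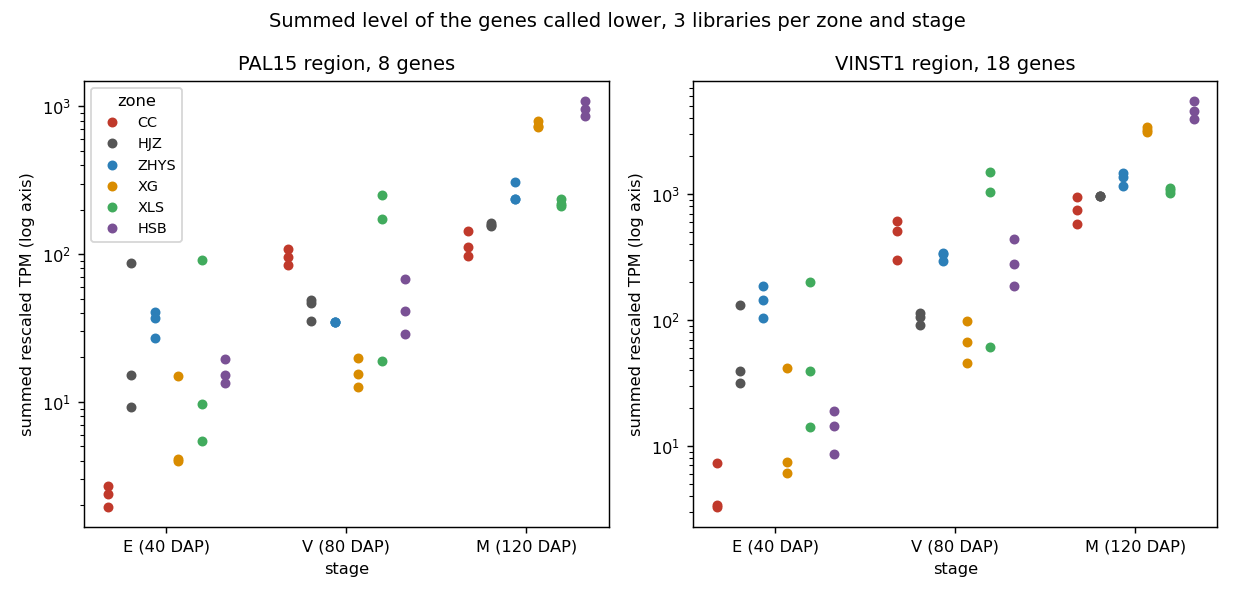
Summed rescaled TPM (log axis, rescaled over all 54 libraries) of the 8 genes around PAL15 and the 18 genes around VINST1 that were called lower in M-CC, by stage and zone; each point is 1 of 3 libraries. The red CC points are lowest at E except 1 of the VINST1 panel (7.27), above HJZ, ZHYS, XG and HSB in the PAL15 panel at V, and lowest again at M (96.7 to 143, and 583 to 945).

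The 12 largest drops of the naming rule (all 3 M-CC values below the other 15) included 3 genes of the PAL15 stretch and 3 of the VINST1 stretch. The largest were LOC100258333 and LOC100266562, which lie in neither and carry no symbol. LOC100258333 had 4.31, 3.86 and 5.01 TPM in M-CC and 8.88 to 47.4 elsewhere (-2.19, SE 0.12, adjusted p = 2.49e-09 by limma). LOC100266562 had 25.5, 29.2 and 40.2 TPM in M-CC and 68.3 to 299 elsewhere (-2.13, SE 0.12, adjusted p = 4.12e-09 by limma). Both were lower than every other zone by more than 1 on the log2 scale, the smallest gap being -1.10 to ZHYS for the first and -1.25 to ZHYS for the second. The gaps to XG and HSB were still the largest, at -3.15 to -2.82. The other 4 outside the stretches, LOC100240862, LOC100264391, LOC109122826 and LOC100264774, had differences of -1.70 to -1.48.

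A further stretch of 8 genes, around LOC100254170, held larger differences, mostly from HSB. Its 8 called genes (of 13 tested) had differences of -2.76 to -1.14, and HSB had the highest mean for all 8. They summed to 4.94, 5.33 and 4.11 TPM in M-CC, 11.9 to 35.7 in HJZ, ZHYS and XLS, 50.4 to 102 in XG and 158 to 438 in HSB. None of the 8 had all 3 M-CC values below the other 15.

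Few defence genes were called, and those that were went in both directions. TL3, a thaumatin-like protein that accumulates in ripe grapes, had 17900, 22500 and 21400 TPM in M-CC and 5910 to 16700 elsewhere. The groups did not overlap, the nearest zone being HSB with 15400 to 16700, and TL3 was higher by 1.13 (SE 0.11, adjusted p = 9.29e-07 by limma). With TPM as deposited the TL3 difference was 0.87, after quantile normalization 0.66 and without XG 0.99, all below the limit. Polyphenol oxidase PPO, which browns crushed fruit, had 33.0, 30.1 and 34.6 TPM in M-CC and 6.59 to 19.2 elsewhere, with a difference of 1.46 (SE 0.08, adjusted p = 4.95e-09 by limma). MLO7, a member of a membrane protein family known for powdery mildew susceptibility, had 1.86, 2.31 and 2.35 TPM in M-CC and 1.03 to 32.8 elsewhere. Its difference of -1.32 (SE 0.21, adjusted p = 1.09e-04 by limma) came from ZHYS, XG and HSB, since HJZ and XLS had values like those of CC (0.11 and 0.03), and it was -0.97 without HSB. Of the 24 tested members of the pathogenesis-related and defence list, 2 were called higher and 1 lower, with a median of -0.03. Over all tested genes 0.958% were called higher and 0.72% lower. The other abundant thaumatin-like gene TL1 had a mean of 18700 TPM in M-CC and 18100 elsewhere (0.14), and the class IV chitinase CHI4D 11800 against 8240 (0.62), neither called. PR10.8 was just inside the limit at -0.99.

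Sugar genes were mostly alike. Cell wall invertase CWINV was the 1 gene called, as lower, among the 21 tested members of the sugar list, against 0.72% of all tested genes. It had 21.6, 30.1 and 29.6 TPM in M-CC and 31.1 to 104 elsewhere. All 3 M-CC values lay below the others, but by little, since HJZ had 31.1 to 33.4 and XLS 31.3 to 32.4. The limma difference was -1.05 (SE 0.09, adjusted p = 2.88e-07), and it was -0.99 without ZHYS, -0.93 without XG, -0.84 without HSB and -0.90 without M-CC replicate 1. The most abundant sugar genes differed by -0.29 for the exporter SWEET15 (714 against 908 TPM), 0.15 for the tonoplast hexose transporter HT6 (102 against 98.4) and -0.07 for the hexose transporter HT5 (87.8 against 119), none of them called. HT6 turned to -0.10 with TPM as deposited.

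**Figure D4:**
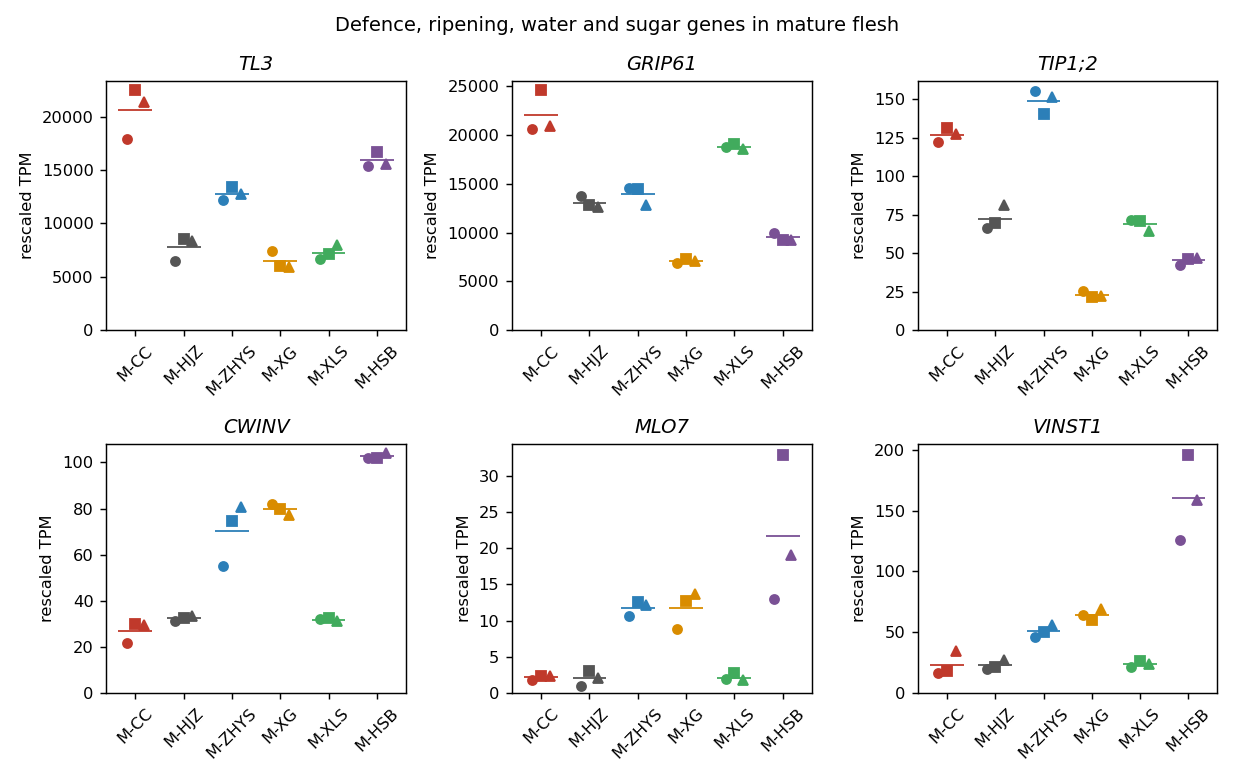
Rescaled TPM of TL3, GRIP61, TIP1;2, CWINV, MLO7 and VINST1 in the 18 mature libraries; each point is 1 library (circle, square and triangle for replicates 1, 2 and 3) and each line is the mean of 3. TL3 and GRIP61 are above and CWINV is below all other libraries in M-CC, while TIP1;2 is highest in M-ZHYS and MLO7 is as low in M-HJZ and M-XLS as in M-CC.

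The ripening-induced GRIP genes, first found as transcripts that rise in ripening grapes, had a common sign only under the rescaling used here. All 11 then had a difference of 0.01 or more (median 0.33), against 9 of 11 above 0 (median 0.08) with TPM as deposited and 6 of 11 (median 0.04) after quantile normalization. GRIP68 was the 1 called, as higher, against 0.958% of all tested genes. MRIP1, with means of 19800 TPM in M-CC and 16700 elsewhere, was at 0.28 and turned to -0.27 after quantile normalization, not called in either. GRIP68 had 237, 310 and 268 TPM in M-CC and 55.7 to 253 elsewhere (1.21, SE 0.08, adjusted p = 2.33e-08 by limma), overlapping M-ZHYS (253, 244 and 208), and it was 0.96 with TPM as deposited and 0.99 without XG. GRIP61 had 20600, 24600 and 20900 TPM in M-CC and 6870 to 19100 elsewhere, so that the groups did not overlap, but its difference of 0.89 was below the limit, and it was 1.06 without XLS. The most abundant member, GRIP4, had 54800, 68800 and 55500 TPM in M-CC and 39400 to 81900 elsewhere (0.18), and turned to -0.07 with TPM as deposited.

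Of the 11 aquaporins, the tonoplast channel TIP1;2 was the 1 called, as higher, against 0.958% of all tested genes. It had 122, 131 and 127 TPM in M-CC, 140 to 155 in M-ZHYS and 21.8 to 81.3 in the other zones. Its difference from the mean of the 5 zones was 1.06 (SE 0.06, adjusted p = 3.37e-09 by limma), yet it was -0.23 against ZHYS, 0.81 with TPM as deposited, 0.91 after quantile normalization, 0.73 without XG and 0.97 without HSB. The plasma membrane channels PIP2;1 (1440 against 899 TPM, 0.88) and PIP1;2 (250 against 160 TPM, 0.68) were not called, although all 3 M-CC values of PIP1;2 were above the other 15. GER7 was the 1 called, as higher, of 5 tested germin-like proteins, against the same 0.958%. It had 777, 616 and 674 TPM in M-CC and 88.0 to 1290 elsewhere (1.37, SE 0.23, adjusted p = 1.42e-04 by limma). It was as high in M-ZHYS (599, 603 and 1290), and with all 54 libraries in the fit its adjusted p was 0.13.

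MADS5 is the grape AGL11 gene, known for seed formation. It had 109, 86.8 and 128 TPM in M-CC and 17.8 to 210 elsewhere, the 210 being M-ZHYS replicate 3 (1.24, SE 0.29, adjusted p = 0.00258 by limma). It was 0.99 with TPM as deposited, and its adjusted p was 0.0584 with all 54 libraries in the fit. MADS5 was the 1 of 5 seed markers called, and it was the only call among 17 tested MADS-box and flowering genes. Over all tested genes 0.958% were called higher. The seed markers summed to 116 to 156 TPM in M-CC, 91.1 to 118 in M-HJZ, 94.5 to 235 in M-ZHYS, 64.7 to 82.8 in M-XG, 117 to 127 in M-XLS and 78.5 to 97.5 in M-HSB, so the groups overlapped. LAR1 was at most 0.516 TPM in any mature library and none of the 5 was at 0 in all of them. MYBPA1, a regulator of seed tannins, had 17.0 to 18.2 TPM in M-CC and 13.5 to 93.1 elsewhere, with a difference of -0.82 that was not called. The part of seed tissue was not tested.

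HSP101, a heat shock chaperone, had 22.5, 19.0 and 47.9 TPM in M-CC and 4.48 to 58.2 elsewhere, with single high libraries in both M-CC (replicate 3) and M-HSB (replicate 2). Its difference of 1.04 had an adjusted p of 0.0252 by limma, which was 0.216 without M-CC replicate 3 (0.65). BAP1 was called lower at the limit, with 6.62, 8.04 and 10.3 TPM in M-CC and 9.59 to 61.8 elsewhere (-1, SE 0.18, adjusted p = 2.47e-04 by limma). It was -0.71 without HSB and also failed the limit without any 1 of 9 single libraries. These were the only calls among 19 stress and antioxidant genes, 1 higher and 1 lower, against 0.958% and 0.72% of all tested genes.

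No member was called among 26 CBL calcium sensors and CIPK kinases (median 0.06), 18 carotenoid and aroma genes (0.16), 16 hormone genes (-0.05), 5 genes of organic acid metabolism (0.26) and 6 genes of photosynthesis and light (-0.09). The largest differences of the aroma list were 0.88 for the carotenoid dioxygenase CCD4b (66.4 against 38.3 TPM) and -0.83 for LOX, a lipoxygenase (1.33 against 3.84 TPM). The 5 acid genes ranged from 0.23 for NADP-ME, an NADP-malic enzyme, to 0.37 for the malate dehydrogenase MDH (270 against 209 TPM), but from -0.03 to 0.12 with TPM as deposited, so their common sign depends on the scaling. The summed photosynthesis genes were 54.2 to 56.4 TPM in M-CC and 37 to 67.6 elsewhere.

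The largest rises of the naming rule carry no symbol. LOC100854413 had 11.6, 13.6 and 12.1 TPM in M-CC, 5.10 to 5.51 in M-HSB and 0.239 to 3.29 in the other zones, the largest rise of all tested genes at 2.42 (SE 0.08, adjusted p = 4.70e-11 by limma). ID_100248386 had 23.5, 20.2 and 22.3 TPM in M-CC and 0.85 to 8.38 elsewhere (2.25, SE 0.13, adjusted p = 5.46e-09). LOC100255237 had 10.6, 9.55 and 15.8 TPM against 0.61 to 5.16 (2.20, SE 0.29, adjusted p = 1.36e-05), and the gap was at least 1.83 to every single zone. At higher levels, LOC100263637 had 846, 1070 and 911 TPM in M-CC and 153 to 367 elsewhere (1.90, SE 0.09, adjusted p = 1.36e-09). It is the strongest of 5 genes called higher in a stretch of 15. ID_104878801 had 234, 258 and 248 TPM in M-CC and 171 to 194 in M-HSB against 31.7 to 94.1 in the rest (1.96, SE 0.07, adjusted p = 1.14e-10). LOC100255885 had 759, 784 and 473 TPM in M-CC, 28.1 to 42.8 in M-XG and 94.3 to 440 elsewhere (2.01, SE 0.22, adjusted p = 2.74e-06). The other 6 of the 12, LOC100854073, LOC100246827, LOC100241895, LOC100266705, LOC100264994 and LOC100254212, were higher by 1.66 to 1.80.

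The longest stretch of rises held 9 called genes of 11 tested around LOC100263064, by 1.07 to 1.62. They summed to 1070, 1120 and 1260 TPM in M-CC and 194 to 908 elsewhere, with ZHYS next at 880 on average and XG lowest for 8 of the 9 genes. At V the same sum was 562, 505 and 456 TPM in V-CC and 180 to 1050 elsewhere, and the change of the CC difference from V to M was called for 8 of the 9.

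Genes called higher in mature CC flesh were called higher at the color transition more often than all genes were. Those called lower in it were more often called lower at enlargement. Most genes of either set had no such earlier call. These stages use other libraries of the same zone. Of the 213 genes called higher at M, 60 (28.2%) were also called higher in V-CC than in HJZ, ZHYS, XG and XLS, against 1.77% of all genes tested, and 1 was called lower, against 0.556%. Their median difference was 0.58 at V and -0.01 at E, where 20 (9.39%) were called higher and 17 (7.98%) lower, against 1.86% and 2.81% of all genes. From E to V in the 4 other zones, 93 of them (43.7%) were called upward, against 7.32% of all genes, and 36 (16.9%) downward, against 9.57%. Of the 160 genes called lower at M, 47 (29.4%) were called lower in E-CC, against 2.81% of all genes, and 2 higher, with a median of -0.45. The 47 include 5 of the 8 genes called lower around PAL15 and 13 of the 18 around VINST1, where reads may be shared. At V 13 of the 160 were called higher (8.12%) and 8 lower (5%), with a median of 0.08. Without V-XLS these counts were 32 (20%) and 4, and 54 (25.4%) of the genes called higher at M were called higher at V. With TPM as deposited the balance of higher and lower calls over all genes turned at both E and V. The shares given here were not recomputed under that scaling. V-HSB was left out of the comparison at V because its expression correlated better with the other zones at E (0.96) than at V (0.937), whereas the other V groups reached 0.979 to 0.991 at V and 0.905 to 0.914 at E.

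**Figure D5:**
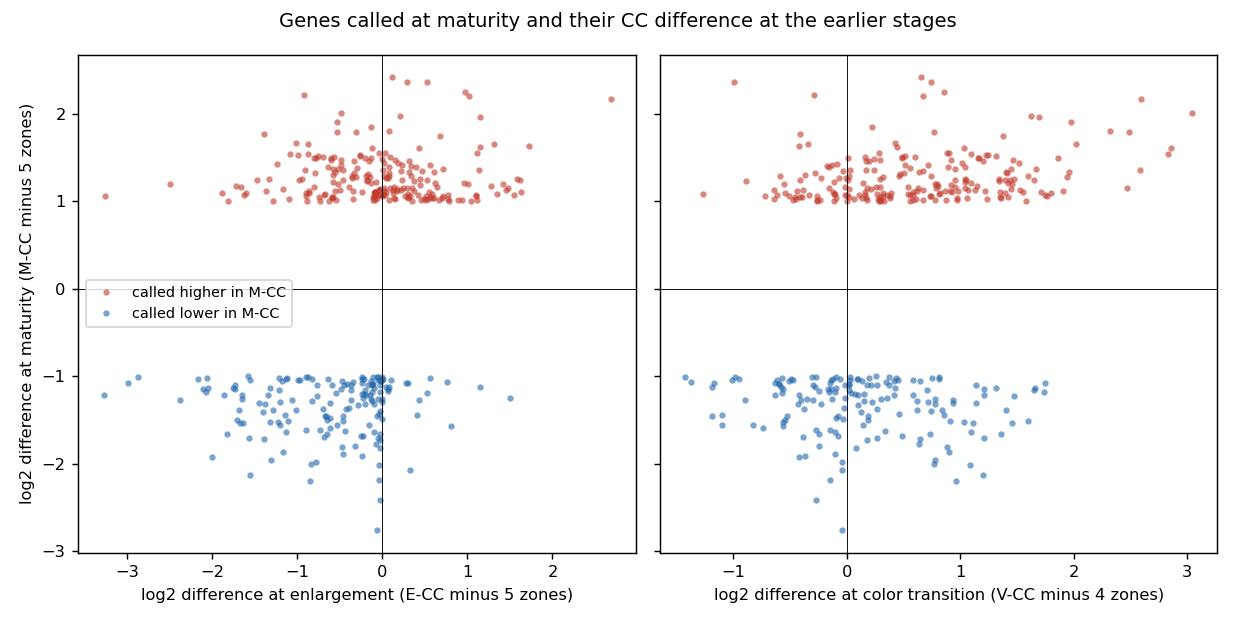
Log2 difference of CC from the other zones at maturity (vertical axis) against the difference at enlargement (left) and at the color transition (right) for the 213 genes called higher (red) and the 160 called lower (blue) in M-CC; each point is 1 gene. Red points shift to the right at the color transition (median 0.58) and blue points to the left at enlargement (median -0.45).

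LOC100263637 shows the first pattern. Its level was 2900, 2980 and 2720 TPM in V-CC, above the 2130 to 2320 of V-XG, the next zone, and its CC difference was 1.97 at V (adjusted p = 1.42e-06) and -0.53 at E (adjusted p = 0.145). TL3 was similar, with a difference of 1.53 at V (adjusted p = 2.74e-08) and -0.50 at E (adjusted p = 0.0264). The regulator mybA did not follow it to the same extent. It was at 0.182 TPM or less in E-CC and at 457, 479 and 444 TPM in V-CC, below the 664 to 783 of V-HJZ and the 551 to 625 of V-XG. From V to M mean mybA rose from 460 to 655 TPM in CC, from 114 to 310 in ZHYS and from 80.7 to 350 in HSB, and fell from 718 to 274 in HJZ, from 585 to 201 in XG and from 290 to 110 in XLS. A rise was thus not particular to CC, and it was larger as a ratio in ZHYS and HSB. Its CC difference rose by 1.16 between V and M against HJZ, ZHYS, XG and XLS (SE 0.26, adjusted p = 0.00105 by limma), and by 0.99 without XLS, just under the limit. Over all genes such a change of the CC difference was called upward for 255 (1.07%) and downward for 309 (1.29%). Among the 160 genes called lower at M it was called downward for 83 (51.9%), and among the 213 called higher it was called upward for 68 (31.9%), shares that rest in part on the same M libraries that chose the genes.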

How the data were processed

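The authors made mRNA sequencing libraries on an Illumina instrument, aligned reads with HISAT2, counted them with featureCounts and deposited TPM per gene, rounded to 2 decimals. The study's methods point to an Ensembl Plants release for the reference, whereas the deposited IDs are NCBI Gene numbers. Tool versions and the treatment of reads shared between genes are not given in the sources used here. TPM keeps no depth. Of 25133 IDs 23256 matched the RefSeq table of assembly ASM3070453v1, used for symbols and gene order only.

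The 18 mature libraries were rescaled by median-of-ratios factors from 17887 genes above 0 TPM in all of them, and log2(TPM + 1) was fitted with limma 3.58.1 in R 4.3.3 (6 group means, 12 residual degrees of freedom, trended prior). Genes above 0 TPM in at least 3 of 18 libraries were tested. A call needed a Benjamini-Hochberg adjusted p below 0.05 and a log2 difference beyond 1. Stage comparisons used all 54 libraries (23906 genes), with V-HSB left out of the reference at V. All p-values are two-sided. Scripts were tested on simulated data. Figures used Python 3.11.15, pandas 2.3.3, numpy 2.4.6 and matplotlib 3.10.9.

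Named genes were the 12 largest rises and falls with all 3 M-CC values outside the other 15 and at least 10 TPM on the higher side, up to 6 annotated ones per direction, up to 4 called members per list and direction, and the 3 most abundant members of the sugar, ripening and flavonoid lists. LOC100232838, ID_104881289 and the stretches of neighbours were chosen after their values were seen, and other list genes are named to describe their list. The groups compared and the gene lists were chosen with earlier results of these data known, and list members were matched by symbol or synonym, which 320 tested genes carry. Alternatives were TPM as deposited, quantile normalization, a pseudocount of 0.1, other filters, a replicate block, all 54 libraries, zone means as units, each zone left out, each library left out, unadjusted p-values and V-HSB kept, and, added after seeing the data, V-XLS left out of the reference at V and list medians under other scalings.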

Additional observations from a re-analysis of the deposited data

Results flagged for a closer look

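For 24 of the 49 named genes the CC difference changed between the color transition and maturity by a called amount (limma interaction over HJZ, ZHYS, XG and XLS, on the log2 scale). It rose by 3.30 for GST4, 2.08 for LOC100854413, 1.95 for LOC100264994, 1.55 for FAOMT, 1.25 for UFGT, 1.23 for TIP1;2, 1.22 for ID_100248386, 1.16 for mybA, 1.15 for PPO, 1.06 for LOC100266705, 1.05 for LOC100854073 and 1.02 for HT6. For GST4, UFGT and FAOMT M-CC replicates 1 and 3 were high and replicate 2 lay inside the range of the other zones. Without XLS in the reference LOC100266705 (0.85) and mybA (0.99) fell under the limit of 1. HT6, a tonoplast hexose transporter, differed by -1.01 at the color transition (against HJZ, ZHYS, XG and XLS) and 0.15 at maturity (against all 5 other zones).

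The change was negative for the other 12. In the PAL15 stretch it was -2.61 for PAL15, -2.45 for LOC100256293, -2.29 for LOC100266593 and -2.03 for LOC100251137. In the VINST1 stretch it was -2.48 for LOC100853526 and -2.28 for LOC100853820. Outside both it was -3.10 for LOC100266562, -2.92 for LOC100258333, -2.68 for LOC100240862, -1.79 for LOC100264391, -1.48 for CWINV and -1.05 for LOC100264774. The genes were chosen at maturity, so the maturity side of each change is not independent of the choice.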

How the results depend on the processing

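No named gene reversed a called direction under any alternative run. Of 49 named genes, 41 were called in the main run. Of these, 6 lost the call with TPM as deposited, 3 after quantile normalization, 4 with all 54 libraries and all 41 with zone means as units. Uncalled genes changed sign with TPM as deposited (GRIP4 -0.07, DFR -0.09, HT6 -0.10) and after quantile normalization (MRIP1 -0.27, DFR -0.01, with GRIP4 at 0). With TPM as deposited 94 genes were called higher and 283 lower, of which 51 and 165 lay outside the range of the other zones, and the stage counts turned from 445 higher and 671 lower to 789 and 467 at E, and from 424 and 133 to 219 and 317 at V. A pseudocount of 0.1 gave 448 higher and 553 lower (188 and 154 outside the range), 972 against M-HJZ, 2807 against M-XG, 1830 for M-HSB and 490 for M-HJZ against their others, 937 and 1392 at E, 819 and 529 at V, and 548 and 723 for the change from V to M. Zone means as units gave 1 higher (ID_104881289, at 0 TPM in all other zones) and 0 lower. The count below the range was 103 without zone HJZ and 94 without ZHYS, and the count above it 204 without ZHYS and 210 without HSB. With zone means as units no gene of either stretch was called (0 of 8 around PAL15 and 0 of 18 around VINST1). With V-HSB kept, 274 genes were lower at V, and the change from V to M was called for 448 upward and 494 downward, against 255 and 309. With V-XLS left out as well as V-HSB, chosen after seeing the data, V gave 458 and 151 and the change 306 and 437.

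Leaving out 1 library gave 199 to 236 genes higher and 149 to 169 lower, 111 to 145 above and 56 to 95 below the range, 330 to 412 against M-HJZ, 1291 to 1381 against M-XG, 819 to 954 for M-HSB and 126 to 211 for M-HJZ, 393 to 465 higher and 631 to 687 lower at E, 379 to 524 and 124 to 150 at V, and 227 to 287 and 262 to 366 for the change. The VINST1 stretch held 12 calls without M-CC replicate 1. Same-numbered libraries showed no common deviation at the median (correlation -0.0181 over 45 pairs, from -0.34 to 0.223). That cannot exclude a pairing of some of them. A replicate block gave 213 higher and 159 lower and changed no call of a named gene. TPM gives no depth, so the precision of low genes is known only from 3 libraries.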

Other observations

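Some genes of fruit volatiles lay above the other zones without reaching the limit of 1. ADH2, an alcohol dehydrogenase of ripe berries, had a mean of 2050 TPM in M-CC against 1320 (0.69), and ADH1 had 55.7 against 34.5 (0.75). For both all 3 M-CC values were above the other 15, as they were for 6.43% of all tested genes. The lipoxygenases differed among themselves, with 0.79 for LOXA (195 against 124 TPM) and -0.60 for LOXO (41.2 against 69.0 TPM). Among the hormone genes, METK3, an S-adenosylmethionine synthetase, had 195 against 122 TPM (0.76), with all 3 M-CC values above the rest, and the gibberellin oxidases GA2ox6 and GA20ox1 had differences of 0.84 and -0.56. The calcium sensor CBL02 had 179 against 121 TPM (0.59), also above all other libraries. None of these was called. In either direction 3 of 18 aroma genes, 3 of 16 hormone genes and 2 of 26 CBL and CIPK genes lay outside the other 15 values. The same held for 2535 of the 22233 tested genes. With TPM as deposited the list medians were -0.04 for aroma and -0.25 for hormones, against 0.16 and -0.05.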
